A study of Homo sapiens with 6 samples.

Results

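The amino acid transporters described here are the genes of 7 solute carrier families, SLC1, SLC3, SLC6, SLC7, SLC36, SLC38 and SLC43. Most members carry amino acids or other small molecules across membranes, while the SLC3 genes encode partner chains of SLC7 carriers. The genes were picked by gene symbol, without pseudogenes, and with earlier results of these data known: 58 of the 18417 genes that the arrays measured with a probe set of their own. Of these, 18 belong to SLC6, 13 to SLC7, 12 to SLC38, 7 to SLC1, 4 to SLC36, and 2 each to SLC3 and SLC43.

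The cells were RL, an established human B-cell lymphoma line with the t(14;18) translocation, which places BCL2 beside the immunoglobulin heavy-chain locus. LY317615, also called enzastaurin, was designed to inhibit protein kinase C beta, a signalling enzyme of the B-cell receptor pathway. There were 3 arrays of cells given LY317615 for 48 h and 3 arrays of untreated cells, whose titles also name 48 h; every culture grew in RPMI-1640 with 10% fetal bovine serum and 2 mM added L-glutamine. The labels give the dose as 2.5 mM, a unit that could not be checked here, and name no vehicle. All values are from this 1 line, and nothing in the labels says that the replicates were separate cultures, so p-values measure only how these arrays differ among themselves, and that may be technical.

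Lymphocytes take up most of their amino acids through exchangers and sodium-coupled carriers. Large neutral amino acids such as leucine enter through light chains of the SLC7 family, which reach the surface bound to the heavy chain SLC3A2 (CD98) and trade one amino acid for another. Glutamine, which enters through SLC1A5 and the SLC38 carriers, feeds such exchange, and amino acids inside the cell and its lysosomes set the activity of the growth kinase complex mTORC1. A shortage of amino acids is sensed by the kinase GCN2 (gene EIF2AK4), which acts through the transcription factor ATF4 on many transporter genes.

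The 6 B-cell markers measured of 7 listed (CD79A, CD79B, MS4A1, PAX5, CD22 and BLK) averaged 9.09 to 11.22 per gene on the log2 scale with LY317615 and 9.40 to 11.50 in untreated cells, and the T-cell and myeloid markers averaged at most 6.04 and 5.61 per gene in either group. Summed intensity of the B-cell markers was 7183 to 7873 with LY317615 and 10250 to 10762 untreated, while that of 4 germinal-centre B-cell markers was 5733 to 6023 and 5626 to 6065. Fibroblast or epithelial markers averaged at most 6.63 per gene with LY317615 and 7.11 untreated, and summed to 314 to 359 and 329 to 357. T-cell markers summed to 185 to 210 and 154 to 159, and myeloid markers to 156 to 189 and 128 to 136; their part in the results was not tested. Median probe-set intensity was 60.0 to 61.4 in the LY317615 arrays and 56.7 to 58.2 in the untreated arrays. Across genes, which are not independent replicates, LY317615 replicate 3 correlated least with the other arrays of its group, at 0.994 and 0.995. In bulk RNA, fewer expressing cells and less RNA per cell cannot be told apart.

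With LY317615, transporter RNA moved unevenly: the cystine importer SLC7A11 was 1.88-fold higher, while SLC38A5, SLC6A16, SLC36A4, SLC6A12, SLC6A9, SLC38A9 and the leucine carrier SLC7A5 fell by between 1.54-fold and 2.94-fold. In all, 8 of 58 members rose and 11 fell at an adjusted p of 0.05, and 39 did not pass. Over all genes 14.2% rose and 21.4% fell (35.7% in either direction), so the members' shares of 13.8% and 19.0% lie near the background. Changes of at least 0.5 on the log2 scale were seen in 1 member that rose and 7 that fell, against 3.05% and 8.73% of all genes. The groups did not overlap in 34 members (58.6%), against 49.8% of all genes. The median log2 fold change was 0.06 over the members and 0.02 over all genes.

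**Figure D1:**
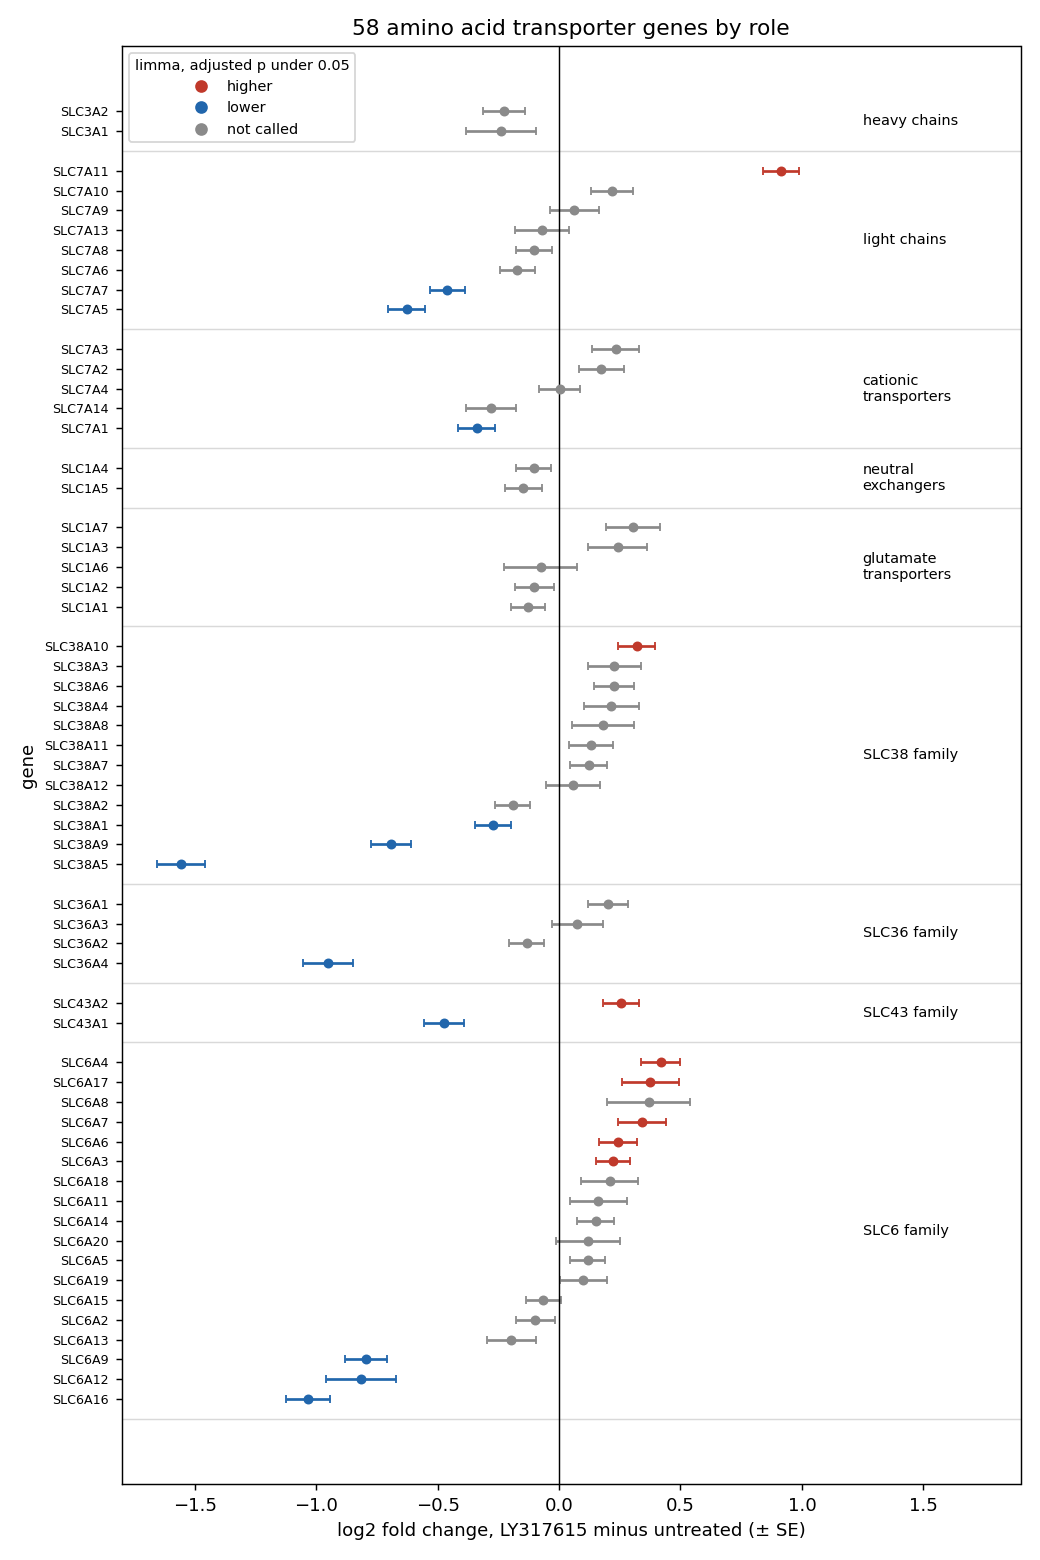
Log2 fold change (LY317615 minus untreated, points, with its standard error as bars) of the 58 transporter genes, grouped by role; red genes rose, blue genes fell and grey genes did not pass limma at an adjusted p of 0.05. SLC7A11 stands alone at the right at 0.91, and SLC38A5 at the left at -1.56.

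Of the 8 light chains, 1 rose, 2 fell and 5 did not pass, and neither heavy chain passed. SLC7A11 (probe set 8102800) encodes xCT, the light chain that brings in cystine in exchange for glutamate and so supplies cysteine for glutathione. It read 11.51, 11.44 and 11.54 on the log2 scale in the LY317615 arrays, against 10.59, 10.63 and 10.53 in the untreated arrays. Every LY317615 array lay above every untreated array, and the change of 0.91 ± 0.07 (SE, adjusted p = 6.86e-05) was the highest among the 58 members.

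SLC7A5 (probe set 8003298), the light chain LAT1 that carries leucine and other large neutral amino acids, read 10.86, 10.69 and 10.80 in the LY317615 arrays, against 11.38, 11.38 and 11.47 in the untreated arrays. All 3 LY317615 arrays were the lower ones, a change of -0.63 ± 0.08 (SE, adjusted p = 0.000464). SLC7A7, the light chain y+LAT1 that exchanges cationic for neutral amino acids, averaged 6.98 ± 0.02 with LY317615 and 7.44 ± 0.06 untreated (SD, n = 3 each), a change of -0.46 (adjusted p = 0.00154). The other 5 light chains did not pass. These were SLC7A6 (y+LAT2), SLC7A8 (LAT2), SLC7A10 (Asc-1), SLC7A9 and SLC7A13, at log2 fold changes of -0.17 to 0.22.

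The heavy chain SLC3A2 (probe set 7940717), which all of SLC7A5, SLC7A6, SLC7A7, SLC7A8, SLC7A10 and SLC7A11 need to reach the surface, read 11.78, 11.60 and 11.51 in the LY317615 arrays, against 11.84, 11.87 and 11.87 in the untreated arrays. The groups did not overlap, but LY317615 replicate 1 lay close to the untreated arrays, and the change of -0.23 ± 0.09 (SE) did not pass (95% interval -0.42 to -0.03, adjusted p = 0.0672). It passed with the array medians set equal (adjusted p = 0.038), with a variance prior that follows intensity (0.00391) and without LY317615 replicate 1, and was -0.02 (adjusted p = 0.84) after cyclic loess, a scaling that removes trends with brightness. SLC3A1, the heavy chain that pairs with SLC7A9 in kidney and gut, was dim and did not pass (-0.24, 95% interval -0.56 to 0.09).

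Each light chain was also set against SLC3A2 within the same array, where any scaling factor of the whole array cancels. A trend with brightness does not cancel. Only the shift between groups is a result, since different probe sets differ in brightness for reasons other than RNA level. SLC7A11 minus SLC3A2 was -0.27, -0.16 and 0.03 in the LY317615 arrays, against -1.24, -1.24 and -1.35 in the untreated arrays, a shift of 1.14. SLC7A5 minus SLC3A2 was -0.92, -0.91 and -0.71 with LY317615, against -0.45, -0.48 and -0.41 untreated, a shift of -0.40. The xCT and LAT1 chains thus shifted in opposite directions relative to their common partner, with no overlap between groups in either difference.

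Set directly against SLC7A5, SLC7A11 was higher by 0.65, 0.75 and 0.74 in the LY317615 arrays and read -0.79, -0.76 and -0.94 relative to it in the untreated arrays. The shift of 1.54 is a 2.91-fold change in the ratio of the 2 signals. Like the shifts against SLC3A2, it is the difference of the 2 genes' own changes and no separate evidence. Shifts against SLC3A2 were -0.23 for SLC7A7 and 0.45 for SLC7A10, both without overlap, and 0.06 for SLC7A6 and 0.13 for SLC7A8, where the groups overlapped. In exact two-sided permutation tests of these 7 differences, the 5 without overlap had p = 0.1, the smallest that 3 arrays against 3 can give, and 0.14 after adjustment over the 7. SLC7A7, SLC7A8 and SLC7A10 are much dimmer than SLC3A2, so the brightness trend enters their shifts. After cyclic loess the genes' own changes were -0.42, -0.24 and 0.17, against -0.02 for SLC3A2. The fall of SLC7A8 passed limma in that setting (adjusted p = 0.037).

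**Figure D2:**
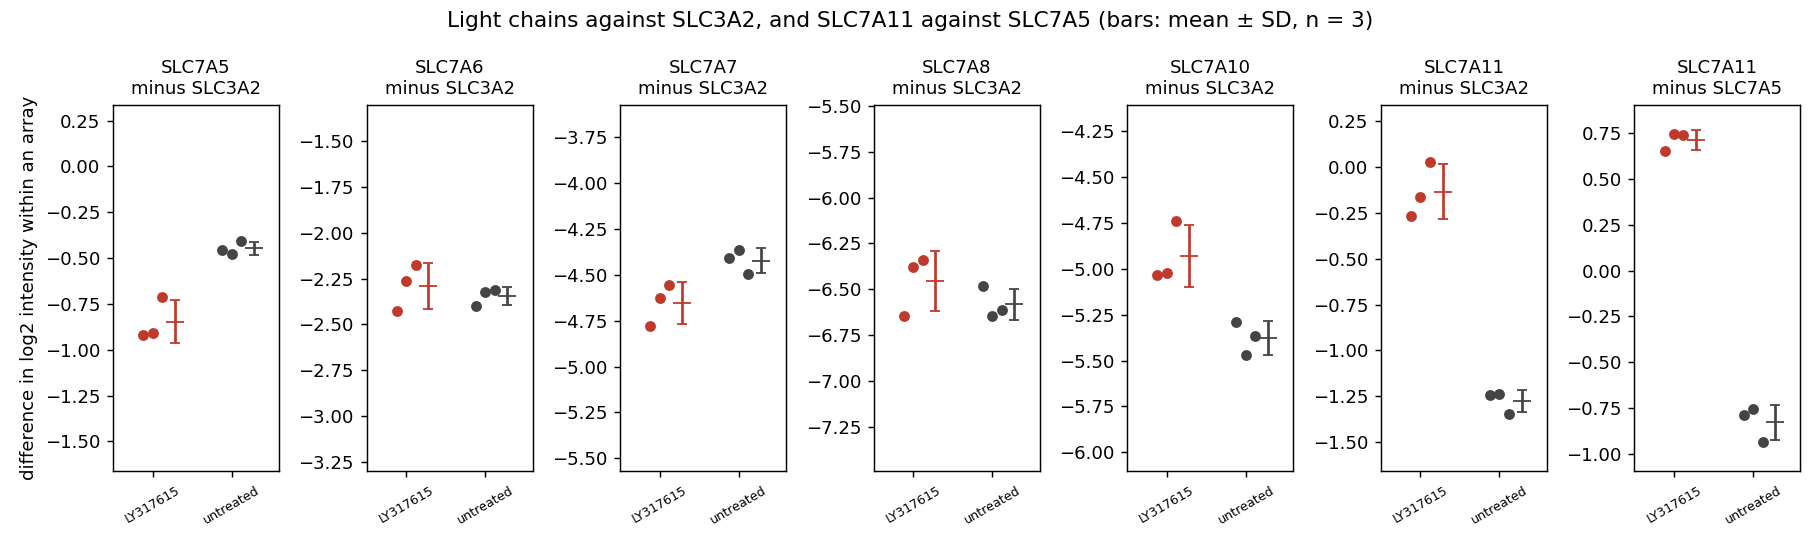
Difference in log2 intensity within each array (vertical axis; points are arrays, bars are the mean ± SD of 3 arrays, every panel spans the same height) for 6 light chains minus the heavy chain SLC3A2 and for SLC7A11 minus SLC7A5. SLC7A11 shifted by 1.14 and SLC7A5 by -0.40 against SLC3A2.

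The cationic amino acid transporters, which carry arginine and lysine, showed 1 fall among 5 members. SLC7A1 (probe set 7970810), the widely expressed arginine importer CAT1, read 10.68, 10.55 and 10.51 in the LY317615 arrays, against 10.89, 10.92 and 10.94 in the untreated arrays. All 3 LY317615 arrays were lower, by -0.34 ± 0.08 (SE, adjusted p = 0.0089), but after cyclic loess the change was -0.12 (adjusted p = 0.184). SLC7A2, SLC7A3, SLC7A4 and SLC7A14 did not pass. SLC7A14 had a pair of probe sets that differed in sign, at -0.28 (adjusted p = 0.0663) and 0.08 (adjusted p = 0.644) in a fit over all single-gene probe sets.

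None of the 7 SLC1 genes passed in limma as fitted here; SLC1A5 passed with a variance prior that follows intensity (adjusted p = 0.0322) and SLC1A7 without untreated replicate 1 (adjusted p = 0.0499). SLC1A5 (probe set 8037835), the glutamine exchanger ASCT2, read 10.92, 10.94 and 10.83 in the LY317615 arrays, against 11.03, 11.12 and 10.99 in the untreated arrays. The groups lay close together without overlap, at a difference of -0.15 (95% interval -0.32 to 0.02, adjusted p = 0.159). Its dimmer probe set differed by -0.25 (adjusted p = 0.103 over all single-gene probe sets). SLC1A4, the related neutral exchanger ASCT1, differed by -0.10 (95% interval -0.27 to 0.06). Among the glutamate transporters, SLC1A1 (EAAT3) averaged 8.74 ± 0.01 with LY317615 and 8.87 ± 0.06 untreated (SD, n = 3 each), which did not pass (adjusted p = 0.194), and SLC1A2, SLC1A3, SLC1A6 and SLC1A7 were all dim, with group means of 4.03 to 5.10 in LY317615 arrays and 4.12 to 4.98 in untreated arrays. The SLC1 changes spanned -0.15 to 0.30.

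The SLC38 family, sodium-coupled carriers of glutamine and other small neutral amino acids, held the largest fall of the 58. SLC38A5 (probe set 8172425) encodes SNAT5, a carrier of glutamine, asparagine, histidine and serine. It read 6.20, 6.11 and 5.85 in the LY317615 arrays, against 7.57, 7.61 and 7.65 in the untreated arrays. The groups lay far apart: SLC38A5 was 2.94-fold lower with LY317615, a change of -1.56 ± 0.10 (SE, adjusted p = 2.28e-05).

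The abundant-signal members SLC38A1 and SLC38A2 (SNAT1 and SNAT2, the general glutamine and alanine carriers of many cells) had small differences. SLC38A1 (probe set 7962516) read 11.85, 11.75 and 11.77 in the LY317615 arrays, against 12.03, 12.12 and 12.04 in the untreated arrays. It was lower in all 3 LY317615 arrays by -0.27 ± 0.07 (SE, adjusted p = 0.0193). That call was lost after cyclic loess (-0.07, adjusted p = 0.413) and without LY317615 replicate 2, untreated replicate 2 or untreated replicate 3. SLC38A2 (probe set 7962537), which is induced by amino acid shortage in many cell types, read 12.23, 12.11 and 12.13 in the LY317615 arrays, against 12.33, 12.35 and 12.36 in the untreated arrays. The groups did not overlap, yet the difference of -0.19 did not pass (95% interval -0.35 to -0.03, adjusted p = 0.0672); it passed with the array medians set equal (adjusted p = 0.0374) and with a variance prior that follows intensity (0.00174), and was 0.000961 (adjusted p = 0.993) after cyclic loess.

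SLC38A9 (probe set 8112121) sits on lysosomes, where it senses arginine and signals it to mTORC1. It read 8.24, 8.34 and 8.14 in the LY317615 arrays, against 8.89, 9.003 and 8.90 in the untreated arrays. Every LY317615 array was below every untreated one, at -0.69 ± 0.08 (SE, adjusted p = 0.000375). SLC38A10 rose, averaging 7.96 ± 0.05 with LY317615 and 7.64 ± 0.07 untreated (SD, n = 3 each), a change of 0.32 (adjusted p = 0.0108). SLC38A7, a glutamine exporter of lysosomes, did not pass (0.12, adjusted p = 0.245). Neither did SLC38A3, SLC38A4, SLC38A6, SLC38A8, SLC38A11 or SLC38A12, at 0.06 to 0.23.

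The SLC36 and SLC43 families each held 1 clear fall. SLC36A4 (probe set 7950990), a high-affinity carrier of proline and tryptophan, read 7.98, 7.77 and 7.65 in the LY317615 arrays, against 8.66, 8.88 and 8.72 in the untreated arrays. It was 1.93-fold lower, with no overlap (-0.95 ± 0.10, SE, adjusted p = 0.000244). SLC36A1, the proton-coupled carrier of lysosomes and the gut, and SLC36A2 and SLC36A3 did not pass, at -0.13 to 0.20.

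SLC43A1 and SLC43A2 (LAT3 and LAT4) let branched-chain and other large neutral amino acids flow down their gradient without exchange, and they changed in opposite directions. SLC43A1 averaged 9.37 ± 0.07 with LY317615 and 9.85 ± 0.10 untreated (SD, n = 3 each), a change of -0.47 (adjusted p = 0.00263). SLC43A2 averaged 8.39 ± 0.06 with LY317615 and 8.13 ± 0.05 untreated (SD, n = 3 each), a change of 0.26 (adjusted p = 0.0255). The rise of SLC43A2 did not pass once array medians were equalised (0.20, adjusted p = 0.0906) and when any 1 array other than LY317615 replicate 3 was left out, and was 0.42 (adjusted p = 0.00194) after cyclic loess.

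**Figure D3:**
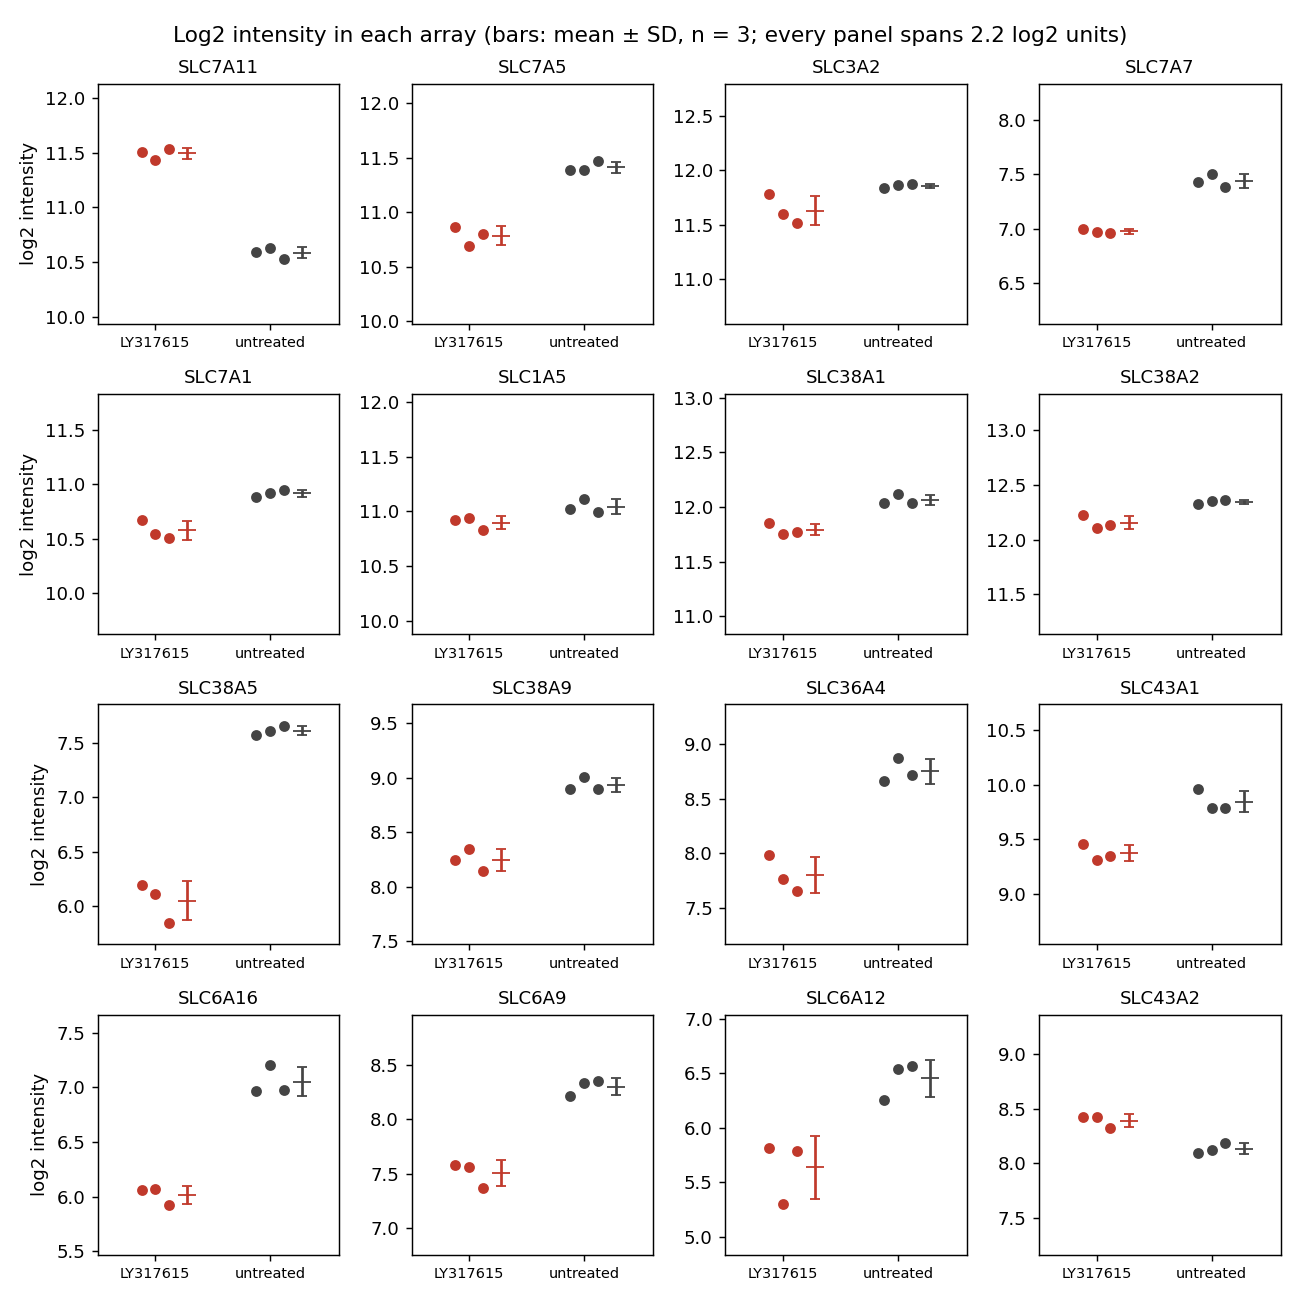
Log2 intensity in each of the 3 LY317615 and 3 untreated arrays (points; bars are the mean ± SD) for 16 transporter genes, with every panel spanning the same height. The groups do not overlap in any panel; the gap is widest for SLC38A5 (-1.56) and narrowest for SLC1A5 (-0.15), whose change did not pass.

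SLC6 holds sodium- and chloride-coupled carriers of neurotransmitters, glycine, taurine, creatine and amino acids, and 3 of its 18 members fell. SLC6A16 (probe set 8038326), an orphan member of the family, read 6.06, 6.07 and 5.92 in the LY317615 arrays, against 6.97, 7.21 and 6.98 in the untreated arrays. It was 2.05-fold lower in the LY317615 arrays, which all lay below the untreated ones (-1.03 ± 0.09, SE, adjusted p = 0.000102).

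The glycine transporter GlyT1 is the product of SLC6A9 (probe set 7915543), which read 7.58, 7.56 and 7.37 in the LY317615 arrays, against 8.21, 8.34 and 8.35 in the untreated arrays. It was lower in every LY317615 array (-0.80 ± 0.09, SE, adjusted p = 0.00025). SLC6A12 (probe set 7960177), a carrier of betaine and GABA, read 5.82, 5.30 and 5.79 in the LY317615 arrays, against 6.26, 6.54 and 6.57 in the untreated arrays. The groups stayed apart, although LY317615 replicate 2 was well below the other LY317615 arrays (-0.82 ± 0.15, SE, adjusted p = 0.00298).

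In SLC6, 5 members rose, all by less than 0.5 on the log2 scale. The taurine transporter gene SLC6A6, the only bright one, averaged 9.001 ± 0.07 with LY317615 and 8.76 ± 0.06 untreated (SD, n = 3 each), a change of 0.24 (adjusted p = 0.0366). Its call did not hold once array medians were equalised (adjusted p = 0.12) and when any 1 array other than LY317615 replicate 3 was left out, and was 0.44 (adjusted p = 0.00218) after cyclic loess. The serotonin transporter gene SLC6A4 averaged 4.88 ± 0.06 with LY317615 and 4.46 ± 0.09 untreated (SD, n = 3 each), a change of 0.42 (adjusted p = 0.00392).

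The dopamine transporter gene SLC6A3, the proline transporter gene SLC6A7 and SLC6A17 changed by 0.22, 0.34 and 0.38 (adjusted p = 0.0321, 0.0266 and 0.0345). After cyclic loess all 3 calls were lost (adjusted p = 0.27, 0.0798 and 0.187), and each was lost without untreated replicate 1 or 2. The call of SLC6A3 was also lost without LY317615 replicate 1 or 2 or untreated replicate 3, that of SLC6A7 without LY317615 replicate 3, and that of SLC6A17 without LY317615 replicate 2 or 3. With the array medians set equal, SLC6A3 and SLC6A17 did not pass (adjusted p = 0.121 and 0.0554). The genes SLC6A4, SLC6A7 and SLC6A17 lie in the second-dimmest of 5 equal bins of brightness, where the median change of all genes was 0.15, and SLC6A3 in the middle bin, where it was 0.11. Whether such dim signals are RNA of these neuronal carriers or background was not tested. The creatine transporter gene SLC6A8 differed by 0.37 with wide spread and did not pass (95% interval -0.02 to 0.76); SLC6A2, SLC6A5, SLC6A11, SLC6A13, SLC6A14, SLC6A15, SLC6A18, SLC6A19 and SLC6A20 did not pass either, at -0.20 to 0.21.

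Changes on these arrays vary with brightness, and the members follow that trend in part. In the 2 dimmest bins lay 30 members, of which 3 rose and 0 fell in limma; 12.4% of all genes there rose and 3.53% fell. In the middle bin lay 9 members, of which 1 rose and 3 fell, against 24.4% and 15.4%. In the 2 brightest bins lay 19 members, of which 4 rose and 8 fell, against 11% and 42.3% of all genes there. The median change of all genes was -0.14 in the fourth bin and -0.21 in the brightest, so the falls of SLC7A1 (-0.34) and SLC38A1 (-0.27) are close to it, whereas SLC7A11 (0.91) lies far from it on the other side. After cyclic loess, 14 of the 19 calls remained: SLC7A11 was 1.13, SLC38A5 -1.57, SLC6A16 -1.09, SLC6A12 -0.93, SLC36A4 -0.78, SLC6A9 -0.66, SLC38A9 -0.50, SLC7A7 -0.42, SLC7A5 -0.41, SLC43A1 -0.25, SLC6A4 0.30, SLC38A10 0.44, SLC6A6 0.44 and SLC43A2 0.42.

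**Figure D4:**
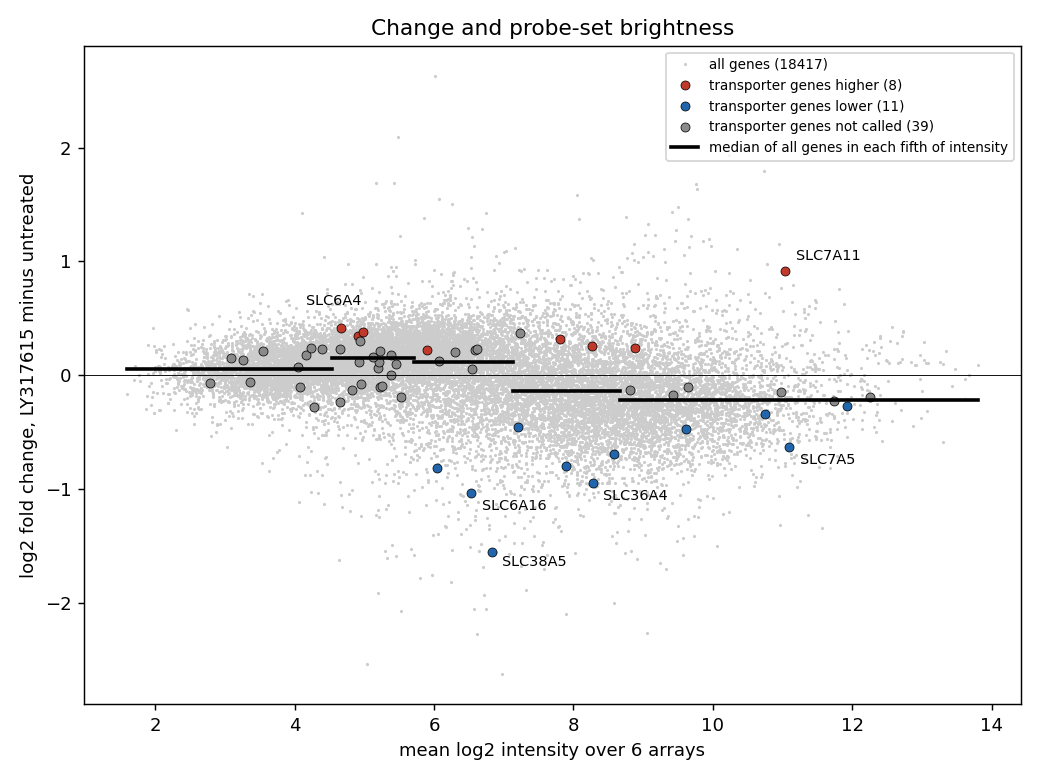
Log2 fold change (LY317615 minus untreated, vertical axis) against mean log2 intensity over the 6 arrays (horizontal axis) for all 18417 genes in grey and the 58 transporter genes in red (rose), blue (fell) or dark grey (did not pass); black bars are the median of all genes in each of 5 equal bins of brightness. The bars run from 0.06 to 0.15, 0.11, -0.14 and -0.21 from dim to bright, and SLC7A11 lies far above the bar of its bin.

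Promoter sequence was set beside the falls because MYC, whose protein binds the E-box CACGTG, changed by -1.32 ± 0.09 on the log2 scale (SE, adjusted p = 3.55e-05), and because MYC is known to drive SLC7A5 in other cells. RefSeq windows (GRCh38.p14) were at hand for 45 members, and the 250 bases before each annotated start were searched on both strands for CACGTG, which reads the same on either strand. The motif was found in 9 of the 45 (20%), against 7.73% of the 27305 genes with a window, not all of which the arrays measured. By result, among members with a window, it was in 5 of 10 that fell, 0 of 5 that rose and 4 of 30 that did not pass. The 4 were SLC1A5, SLC1A7, SLC7A8 and SLC36A1, which changed by -0.15, 0.30, -0.10 and 0.20. In all 11 members fell and 8 rose, so these counts do not cover every called member. Members without a window, which are not named here, were searched for neither motif. No such split was made for all genes, so the split of the members has no background. The motif was chosen after these values were seen, a match is no binding site, and nothing was tested.

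The sequences below show the E-box in capitals with 22 bases on each side, in the 5 members that fell and in the glutamine exchanger SLC1A5. Of the 4 members that carry an E-box and did not pass, only SLC1A5 is shown. The sequences of SLC1A7, SLC7A8 and SLC36A1 are not among those below. The sequences shown are given 5′ to 3′ on the minus strand, on which all 6 genes lie.
SLC38A5: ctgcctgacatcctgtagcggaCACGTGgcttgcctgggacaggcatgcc
SLC7A5: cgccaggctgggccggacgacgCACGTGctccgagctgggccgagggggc
SLC43A1: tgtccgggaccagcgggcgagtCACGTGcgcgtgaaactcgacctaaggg
SLC7A7: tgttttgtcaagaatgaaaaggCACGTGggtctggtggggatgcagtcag
SLC6A16: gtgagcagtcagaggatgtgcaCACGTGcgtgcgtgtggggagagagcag
SLC1A5: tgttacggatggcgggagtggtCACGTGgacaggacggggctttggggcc
They lie at chrX:48470439-48470488 (SLC38A5), chr16:87869610-87869659 (SLC7A5), chr11:57515787-57515836 (SLC43A1), chr14:22816069-22816118 (SLC7A7), chr19:49325303-49325352 (SLC6A16) and chr19:46787316-46787365 (SLC1A5). The E-box begins 206, 130, 112, 225, 139 and 50 bases before the start in that order. The flanks differ from gene to gene, and the 6 share only the core. The composite element TGATGNAA, which ATF4 binds with C/EBP partners, was found on either strand in SLC1A3 and SLC1A5, or 2 of the 45 members, against 3.89% of all genes with a window. Genes were counted as for the E-box, with the same limit.

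The amino acid response list holds ATF4, genes it drives and the upstream genes EIF2AK4, EIF2AK3, GCN1 and IMPACT. Of 27 measured genes, 17 fell, these 4 upstream genes among them, and 1, ATF5, rose (0.28, adjusted p = 0.0368), with a median change of -0.40 against 0.02 over all genes. The rise of ATF5 did not pass with the array medians set equal (adjusted p = 0.101), and no gene of the list rose when any 1 array other than LY317615 replicate 3 was left out. Of its genes, 20 lie in the 2 brightest bins, and 13 of these (65%) fell, against 42.3% of all genes there. The median change in those bins was -0.40 for the list and -0.18 for all genes. CTH, an enzyme that makes cysteine, changed by -0.94 ± 0.10 (SE, adjusted p = 0.000223), the stress factor genes DDIT3 (CHOP) and ATF3 by -0.90 ± 0.11 and -0.75 ± 0.10, the glutathione-degrading CHAC1 by -0.79 ± 0.08, the ER stress kinase gene EIF2AK3 by -0.86 ± 0.07 and the lipoprotein receptor gene VLDLR by -0.87 ± 0.09. SLC7A11, itself a known ATF4 target, rose while 17 of the 27 listed genes fell, 4 of them upstream genes and not targets. The list was chosen with earlier results of these data known, and why SLC7A11 differed was not tested.

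RNA of ATF4 itself did not pass: it read 12.02, 11.94 and 11.98 in the LY317615 arrays, against 11.93, 12.01 and 11.99 in the untreated arrays. These values are of its brightest probe set. The groups overlapped (0.01, 95% interval -0.16 to 0.17), the sign depended on the setting, and after cyclic loess ATF4 was 0.21 (adjusted p = 0.0325). With the mean of its probe sets it was -0.11 and did not pass (adjusted p = 0.29). ATF4 is controlled largely at translation, which arrays do not measure. ASNS, the asparagine synthetase gene and a classic ATF4 target, read 12.26, 12.13 and 12.09 with LY317615, against 12.42, 12.40 and 12.28 untreated. Its difference of -0.21 did not pass (95% interval -0.39 to -0.02, adjusted p = 0.0763). That outcome depended on the setting. ASNS passed with the array medians set equal (adjusted p = 0.0406) and with a variance prior that follows intensity (0.00352). It also passed without the dimmest 30% of genes (adjusted p = 0.0439), but was -0.01 (adjusted p = 0.904) after cyclic loess.

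Genes that carry the amino acid signal to mTORC1 changed in either direction: of 33 that were measured, 11 fell and 4 rose, with a median of -0.15. In the 2 brightest bins, 11 of its 26 genes fell (42.3%), the share of all genes there. SESN3, a sestrin of the family that holds mTORC1 back when leucine is short, read 9.62, 9.71 and 9.58 in the LY317615 arrays, against 8.24, 8.51 and 8.48 in the untreated arrays. It was 2.34-fold higher with no overlap (adjusted p = 5.28e-05), and its relative SESN1 rose by 0.45 (adjusted p = 0.00364), while SESN2, which is on the ATF4 list, changed by -0.41. The mTORC1 scaffold gene RPTOR changed by -0.57 ± 0.08 (SE), the inhibitor gene TSC1 by -0.71 ± 0.08, LARS1, the leucyl-tRNA synthetase gene, by -0.53 ± 0.08 and SEH1L, of the GATOR2 complex, by -0.44 ± 0.07. TSC2 and LAMTOR2 rose, each by 0.32 (adjusted p = 0.0205 and 0.0228). Neither passed with the array medians set equal (adjusted p = 0.0528 and 0.052). MTOR did not pass (-0.09, 95% interval -0.27 to 0.09).

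Among enzymes that use the carried amino acids, 14 of 30 measured genes fell (46.7%) and 3 rose (10%), with a median of -0.19, against 21.4% and 14.2% of all genes. Of the 18 in the 2 brightest bins, 11 fell (61.1%), against 42.3% of all genes there. Enzymes of branched-chain amino acid breakdown were among them: BCKDHA changed by -1.24 ± 0.09 (SE, adjusted p = 5.4e-05) and BCAT1 by -0.72 ± 0.07, whereas BCKDHB, whose product pairs with that of BCKDHA, rose by 0.25 (adjusted p = 0.0423; 0.112 with the array medians set equal). PYCR1 and OAT, of proline and ornithine metabolism, changed by -0.91 ± 0.08 and -0.71 ± 0.08, the mitochondrial aspartate aminotransferase gene GOT2 by -0.58 ± 0.08, and GCLC, the catalytic subunit that starts glutathione synthesis, by -0.67 ± 0.07.

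**Figure D5:**
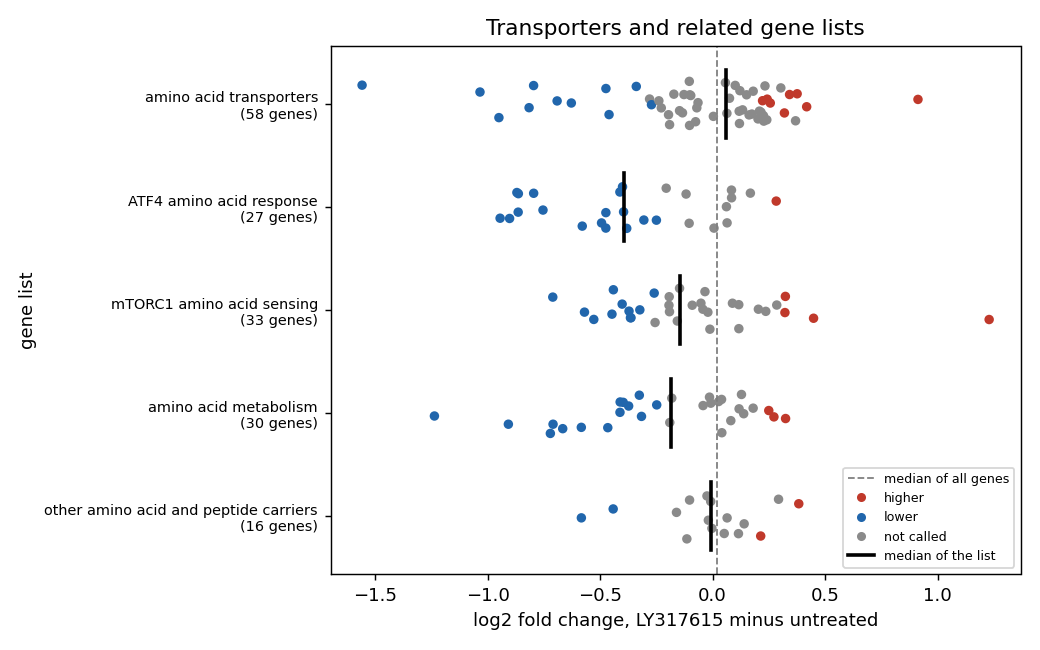
Log2 fold change (LY317615 minus untreated, horizontal axis) of each gene (points, spread vertically for legibility) in the 58 transporters and 4 related lists; red genes rose, blue genes fell, grey genes did not pass, black bars are list medians and the dashed line is the median of all genes (0.02). The ATF4 list has its median at -0.40 and the transporters at 0.06.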

How the data were processed

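Total RNA of RL cells was hybridised to Affymetrix Gene 1.0 ST arrays, 3 per group. The deposited values are linear intensities per probe set, made by the authors with RMA, per the submitters' processing notes, which also name GCOS 1.4 and the Affymetrix Expression Console; their order is not given in the sources used here. Log2 was taken with no added constant and no further scaling. Of 33297 probe sets, 19460 had 1 gene symbol and stood for 18417 genes; the brightest probe set of a gene was used. No detection calls were used, so which dim genes were above background is not known. Samples were grouped by their treatment label. Each gene was tested two-sided with limma 3.58.1 (R 4.3.3; lmFit and eBayes, no covariate); p-values were adjusted by Benjamini-Hochberg across the 18417 genes, and 0.05 was the threshold. Intervals are 95% intervals from the same model. The number of arrays limits precision.

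The members and gene lists were chosen with earlier results of these data known. Values in every array are given for members that passed with a change of at least 0.5 and for SLC3A2, SLC7A5, SLC7A11, SLC7A1, SLC1A5, SLC38A1, SLC38A2 and SLC38A9. Of each list up to 6 genes that passed are named by smallest adjusted p, with ATF4, ASNS, MTOR and MYC. ATF5, SESN2, BCKDHB, TSC2, LAMTOR2, EIF2AK4, GCN1, IMPACT and the redox genes other than GCLC and CHAC1 fall outside this rule and were named after their values were seen. SLC7A6OS, which matches the family symbols but lies opposite SLC7A6 and is no transporter, was left out, as were 3 probe sets that share several symbols. Promoter windows came from RefSeq (GRCh38.p14). The fit was tested on simulated data whose spread was taken from the untreated arrays. It recovered 68.75% of planted log2 changes of 0.5, 90% of those of 1 and 100% of those of 2, with 6 false calls. Changes of these sizes were planted in 80, 80 and 40 of the 18417 genes. That is a far smaller share than the 35.7% that passed in the data, so recovery in the data may differ. Changes smaller than 0.5 were not simulated. Replicate numbers were checked for pairing: deviations of same-numbered arrays correlated at -0.017, 0.0932 and 0.0664, and those of differently numbered arrays at -0.107 to 0.0438. All were small, and no pairing was assumed.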

Additional observations from a re-analysis of the deposited data

How the results depend on the processing

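Of the 19 transporter calls, 13 to 17 remained when 1 array was left out, 18 when the variance prior followed intensity, 15 with the array medians set equal, 14 after cyclic loess, 16 without the dimmest 30% of genes and 19 when probe sets of a gene were averaged; the cause was not tested, except that SLC6A4, SLC6A7 and SLC6A17 were not tested without the dimmest 30%. The members that rose, 8 as reported, were 4 with medians equal, 5 after cyclic loess, 2 at an adjusted p of 0.01 and 3 to 7 leaving out 1 array, and those that fell, 11 as reported, were 14, 11, 10 and 10 to 13 under the same settings. With the variance prior following intensity 15 fell, and SLC1A5, SLC3A2, SLC38A2, SLC6A8 and SLC7A6 were gained. The members' median was -0.10 without the dimmest 30% and 0.00445 to 0.0667 leaving out 1 array. Over all genes, 1810 rose and 4526 fell with medians equal, 2588 and 2979 after cyclic loess, 967 and 2619 at 0.01, and 1566 to 2538 and 3043 to 3677 leaving out 1 array, against 2622 and 3946.

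Higher genes in the lists, with medians equal, after cyclic loess, at 0.01 and leaving out 1 array, were 0, 3, 0 and 0 to 1 for the ATF4 list and 2, 7, 2 and 2 to 5 for mTORC1 sensing. For metabolism they were 1 with medians equal, 0 at 0.01 and 0 to 2 leaving out 1 array, and for other carriers 1, 1 and 1 to 2; 1 other carrier was lower at 0.01. Lower genes leaving out 1 array were 15 to 16, 9 to 10, 12 to 14 and 2.

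The replicate numbers were also tried as a block, although deviations of same-numbered arrays correlated at no more than 0.0932. With the replicate block 17 of the 19 calls remained (SLC6A3 and SLC6A6 were lost, SLC6A8 and SLC7A14 gained), with 1 higher gene each in metabolism and other carriers, and 2712 higher and 3836 lower over all genes.

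Signs turned only in genes that had not passed. After cyclic loess they were SLC1A1 (0.0714), SLC1A4 (0.118), SLC1A5 (0.0698), SLC36A3 (-0.0106), SLC38A2 (0.000961), SLC6A5 (-0.011), SLC6A19 (-0.041), SLC6A20 (-0.0193), SLC7A4 (-0.138), SLC7A6 (0.0464), SLC7A9 (-0.0748) and MTOR (0.0896). With medians equal they were SLC7A4 (-0.0525) and ATF4 (-0.0497), and with the mean of probe sets ATF4 (-0.11). Leaving out 1 array gave ranges of -0.168 to 0.0841 for SLC1A6, -0.00732 to 0.183 for SLC38A12, -0.00342 to 0.218 for SLC6A20, -0.174 to 0.0376 for SLC7A13, -0.0576 to 0.0664 for SLC7A4, -0.0254 to 0.147 for SLC7A9 and -0.017 to 0.0274 for ATF4.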

Other observations

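Cystine brought in by SLC7A11 feeds glutathione synthesis, so genes of cystine, glutathione and the NRF2 response were read beside it. This list was put together after values were seen and has no test of its own. Of 14 measured genes, 1 rose and 5 fell, with a median log2 fold change of -0.14; these are 7.14% and 35.7%, against 14.2% and 21.4% of all genes. NQO1, a quinone reductase and NRF2 target, was the 1 that rose (0.72 ± 0.08, SE, adjusted p = 0.00029). TXNRD1, the thioredoxin reductase gene, changed by -0.60 (adjusted p = 0.000744), the haem oxygenase gene HMOX1 by -0.52 (adjusted p = 0.00127), the glutathione exporter gene ABCC1 by -0.25 (adjusted p = 0.0328; -0.09 and 0.304 after cyclic loess), and GCLC and CHAC1 by -0.67 and -0.79. GCLM, the regulatory partner of GCLC, did not pass (0.03, adjusted p = 0.809), nor did NFE2L2, which encodes NRF2 (-0.10, adjusted p = 0.302), or the lipid peroxide-reducing enzyme gene GPX4 (0.04, adjusted p = 0.709).

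Among 16 other amino acid and peptide carriers, 2 rose and 2 fell (12.5% each, against 14.2% and 21.4% of all genes), with a median of -0.01. The lysosomal cationic amino acid exporter gene SLC66A1 and its relative SLC66A2 rose by 0.38 and 0.21 (adjusted p = 0.00729 and 0.0399); SLC66A2 did not pass with the array medians set equal (0.16, adjusted p = 0.153). The peptide transporter genes SLC15A2 and SLC15A3 changed by -0.58 and -0.44 (adjusted p = 0.01 and 0.0032).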
